A study of Mus musculus with 8 samples.

Results

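The genes described here are 9 solute carriers that move glucose, neutral amino acids and lactate across the plasma membrane of T cells. They were picked by name: *Slc2a1* and *Slc2a3* (glucose), *Slc7a5*, *Slc3a2*, *Slc1a5*, *Slc38a1* and *Slc38a2* (amino acids), and *Slc16a1* and *Slc16a3* (lactate). All 9 were among the 55335 genes of the deposited table, and all 9 passed the filter on low counts with 15378 genes in all. RNA-seq was run on CD8+CD44+PD-1+ T cells (TILs, lymphocytes that had entered the tumor) sorted from MC38 tumors, a colon carcinoma line of the mouse, implanted in C57BL/6 mice. The 4 wildtype (WT) samples came from Lsd1f/f littermates and the 4 LSD1-deficient (KO) samples from Cd4-Cre+Lsd1f/f mice, so the floxed allele was shared by both groups and the Cre by KO mice alone. Mice of 6 to 10 weeks were used, and tumors were taken on day 18 by the protocol (day 14 by the series' design text). No drug was given. Cd4-Cre acts in developing T cells, so the deletion is not limited to CD8+ cells. Cells of 2 mice went into each WT sample and those of 1 mouse into each KO sample, with 10000 to 20000 sorted cells, so pooling and genotype cannot be told apart. The study's sample names are used: WT samples are S1 to S4, and KO samples are S5 to S8. A value after ± is an SD and a value after SE a standard error.

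A T cell that has met antigen takes up far more nutrients than a resting T cell. GLUT1 (encoded by *Slc2a1*) and GLUT3 (*Slc2a3*) let glucose in along its gradient. LAT1 (*Slc7a5*) pairs with the CD98 heavy chain (*Slc3a2*) and imports large neutral amino acids such as leucine in exchange for glutamine, which enters through ASCT2 (*Slc1a5*) and the sodium-coupled carriers SNAT1 (*Slc38a1*) and SNAT2 (*Slc38a2*). Lactate made by glycolysis crosses the membrane with a proton through MCT1 (*Slc16a1*) or MCT4 (*Slc16a3*), and MCT4 is the form typical of cells that export much lactate.

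Library totals ran from 11657807 to 30295406 counts, and S8 was the deepest. Values are CPM, that is, counts over the library total scaled with edgeR's TMM factors, and 3 counts correspond to 0.105 to 0.25 CPM, and this floor is one of counting error alone. *Kdm1a*, the gene of LSD1 that was deleted, lay at 42.7 to 47.2 CPM in WT and 25.2 to 34.8 CPM in KO samples, so reads of the gene were reduced but present. Counts of a whole gene do not tell RNA of an intact allele from RNA of a deleted allele. By flow cytometry, the study saw LSD1 protein reduced in KO thymocytes that carry CD4 or CD8 alone. The span of *Kdm1a* overlaps that of *Luzp1* on the other strand by 4241 bases, but their exons share 0 bases. Whether counting used the strand is not given in the sources used here. The 8 defining genes of CD8 T cells summed to 3553 to 4177 CPM in WT and 3217 to 4012 CPM in KO samples, but they did not move together. *Cd44* rose from 433 to 785 CPM on average and *Cd8b1* fell from 346 to 264 CPM (adjusted p = 0.000107 and 0.0158 by edgeR). The other 6 did not pass 0.05, with log2 fold changes of -0.36 for *Cd3g* and -0.27 for *Cd8a*. Of 20 myeloid markers, 18 were tested and 13 passed an adjusted p of 0.05 (edgeR's quasi-likelihood test), all 13 lower in KO. Their summed level was 509 to 1536 CPM in WT, highest in S3, and 245 to 358 CPM in KO samples, so this myeloid signal differed with the genotype. In KO samples *C1qa*, *C1qb* and *C1qc* were still at 3.26, 4.88 and 4.05 CPM on average. The 7 epithelial tumor markers summed to 19.7 to 35.9 CPM in WT and 32.6 to 45.5 CPM in KO samples, mostly from *Cdh1* (19.5 and 24.7 CPM on average) and *Lgals4* (7.62 and 13.4 CPM), while *Krt8* and *Krt19* had 0 counts in all samples. Of 4 markers of CD4 T cells, 3 were higher in KO. The 4 summed to 40.1 to 57.0 CPM in WT and 121 to 155 CPM in KO samples, mostly from *Zbtb7b* (44.6 and 102 CPM on average). This signal thus also differed with the genotype, and its part in the transporter differences was not tested. The neutrophil and B cell lists summed to at most 6.61 and 5.71 CPM in any sample. Erythroid genes summed to 4.96 to 13.4 CPM in WT and at most 0.919 CPM in KO samples. The stromal and endothelial list summed to 21.7 to 31.4 CPM in WT and 59.5 to 78.8 CPM in KO samples, mostly from *Pecam1*, which T cells also express.

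Promoter sequences are shown for the 3 transporter genes whose RNA differed between the genotypes, since hypoxia and MYC are known to act on these genes. The RefSeq table (GRCm38.p6, 250 bases before to 50 bases after the start site) held promoters of 5 of the 9 genes: *Slc2a1*, *Slc3a2*, *Slc38a2*, *Slc16a1* and *Slc16a3*. Capitals mark the motifs searched, on both strands: CACGTG (the E-box), ACGTG (the core of the hypoxia response element, which lies inside CACGTG), TGATGNAA (the element of ATF4), and CTTTGAA and CTTTGAT (TCF/LEF). Each sequence is given 5′ to 3′ in the sense of the gene.
*Slc16a1* (chr3:104638414-104638713, plus strand): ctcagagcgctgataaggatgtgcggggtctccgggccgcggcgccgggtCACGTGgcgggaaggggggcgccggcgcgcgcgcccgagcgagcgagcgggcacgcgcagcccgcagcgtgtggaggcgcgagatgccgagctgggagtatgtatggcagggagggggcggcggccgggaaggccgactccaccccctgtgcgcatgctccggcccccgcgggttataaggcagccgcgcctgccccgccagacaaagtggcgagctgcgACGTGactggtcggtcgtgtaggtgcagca
*Slc16a3* (chr11:120948817-120949116, plus strand): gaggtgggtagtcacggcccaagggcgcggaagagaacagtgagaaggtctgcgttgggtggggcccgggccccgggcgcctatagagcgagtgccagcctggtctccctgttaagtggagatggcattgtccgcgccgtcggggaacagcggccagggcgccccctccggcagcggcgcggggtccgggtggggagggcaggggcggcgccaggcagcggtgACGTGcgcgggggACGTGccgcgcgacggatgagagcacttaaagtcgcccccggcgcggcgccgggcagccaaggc
*Slc2a1* (chr4:119108495-119108794, plus strand): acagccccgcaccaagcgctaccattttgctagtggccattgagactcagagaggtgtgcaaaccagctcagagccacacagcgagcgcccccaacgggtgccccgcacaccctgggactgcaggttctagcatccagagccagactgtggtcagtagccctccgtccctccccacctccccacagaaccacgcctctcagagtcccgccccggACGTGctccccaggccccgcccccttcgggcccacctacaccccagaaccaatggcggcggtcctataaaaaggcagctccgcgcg

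ACGTG was found in 4 of the 5 promoters, all but *Slc38a2*, and in 19.6% of all 32851 promoters of the table. *Slc16a3* held 2 copies, at 27 and 14 bases before the start site, and *Slc2a1* held 1. The E-box was in the promoter of *Slc16a1* alone, 200 bases before the start site, and in 7.15% of all promoters. Outside this E-box, *Slc16a1* held 1 further ACGTG after the start site. TGATGNAA and CTTTGAT were in none of the 5 promoters (3.97% and 3.73% of all), and CTTTGAA was in that of *Slc3a2* (5.14% of all). These are matches of letters and no binding was measured.

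The lactate carriers moved in opposite directions. *Slc16a1* rose and *Slc16a3* fell in LSD1-deficient TILs. Their summed level per kilobase of exons, in which a rise and a fall offset each other, overlapped between the groups. *Slc16a1* (ENSMUSG00000032902.1), on the plus strand of chromosome 3 of GRCm38 from 104638668 to 104658462, was at 63.2, 59.4, 49.9 and 69.0 CPM in S1 to S4. In S5 to S8 it was at 74.0, 79.6, 79.3 and 91.9 CPM. No KO sample fell into the WT range, and S8 was the highest. The means were 60.4 ± 8.06 CPM (n = 4) and 81.2 ± 7.57 CPM (n = 4). The log2 fold change was 0.43 (SE 0.12, 95% interval 0.17 to 0.69, adjusted p = 0.0329 by edgeR over all genes tested), which is 1.35-fold. The exact permutation test over the 70 arrangements of the samples gave p = 0.0286 (two-sided), the smallest p that 4 samples against 4 allow.

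*Slc16a3* (ENSMUSG00000025161.16), on the plus strand of chromosome 11 from 120948480 to 120960868, was at 102, 89.2, 87.6 and 124 CPM in S1 to S4. It was at 74.3, 74.4, 50.2 and 82.8 CPM in S5 to S8. All KO samples lay below all WT samples, with S7 the lowest and S4 the highest. The means were 100.7 ± 16.6 CPM (n = 4) and 70.4 ± 14.1 CPM (n = 4). This gave a log2 fold change of -0.51 (SE 0.15, 95% interval -0.83 to -0.19, adjusted p = 0.036 by edgeR), or 0.701-fold.

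Among the glucose carriers, *Slc2a1* fell and *Slc2a3* was higher in KO samples without passing the test. *Slc2a1* (ENSMUSG00000028645.11), on the plus strand of chromosome 4 from 119108711 to 119137983, was at 168, 193, 160.3 and 168 CPM in S1 to S4. It was at 148, 106, 116 and 142 CPM in S5 to S8. The groups did not overlap, and S6 and S7 were the lowest. From 172 ± 14.1 CPM (n = 4) it fell to 128 ± 20.2 CPM (n = 4), a log2 fold change of -0.43 (SE 0.12, 95% interval -0.68 to -0.18, adjusted p = 0.0236 by edgeR), or 0.742-fold.

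*Slc2a3* (ENSMUSG00000003153.10), on the minus strand of chromosome 6 from 122727809 to 122801640, was at 263, 332, 239 and 337 CPM in S1 to S4. It was at 357, 386, 371 and 354 CPM in S5 to S8. The KO samples all exceeded the WT samples, and the WT samples spread more widely than the KO samples. The means were 293 ± 49.3 CPM (n = 4) and 367 ± 14.7 CPM (n = 4). The log2 fold change of 0.33 (SE 0.11, 95% interval 0.09 to 0.56) missed 0.05 after adjustment (adjusted p = 0.0728 by edgeR), although DESeq2's Wald test gave an adjusted p of 0.0277.

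At an adjusted p under 0.05, 1 of the 9 transporters was higher in KO cells, against 6.31% of all genes tested in that direction, and 2 were lower, against 4.98%. At the thresholds of the study's methods (over 1.5-fold, adjusted p below 0.01), edgeR and DESeq2 each called 0 of the 9, against 2.91% of all genes higher, 1.99% lower and 4.9% in either direction. At an unadjusted p under 0.05 there were 4 of the 9, against 24.5% of all genes tested. In 2 genes all KO samples exceeded all WT samples, as in 8.99% of all genes, and in 2 they all lay below, as in 8.28%. The median log2 fold change of the 9 was 0.14, beside -0.01 over all genes tested. These 3 calls were close to the threshold. With 1 sample left out, *Slc2a1* lost its call without S2, S6 or S7 (adjusted p = 0.0832 to 0.0937, edgeR). *Slc16a1* lost it without S2, S3, S6, S7 or S8 (adjusted p = 0.0618 to 0.107), and *Slc16a3* without S1, S2, S4, S5, S6 or S7 (adjusted p = 0.0503 to 0.142). No direction turned in these fits.

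**Figure D1:**
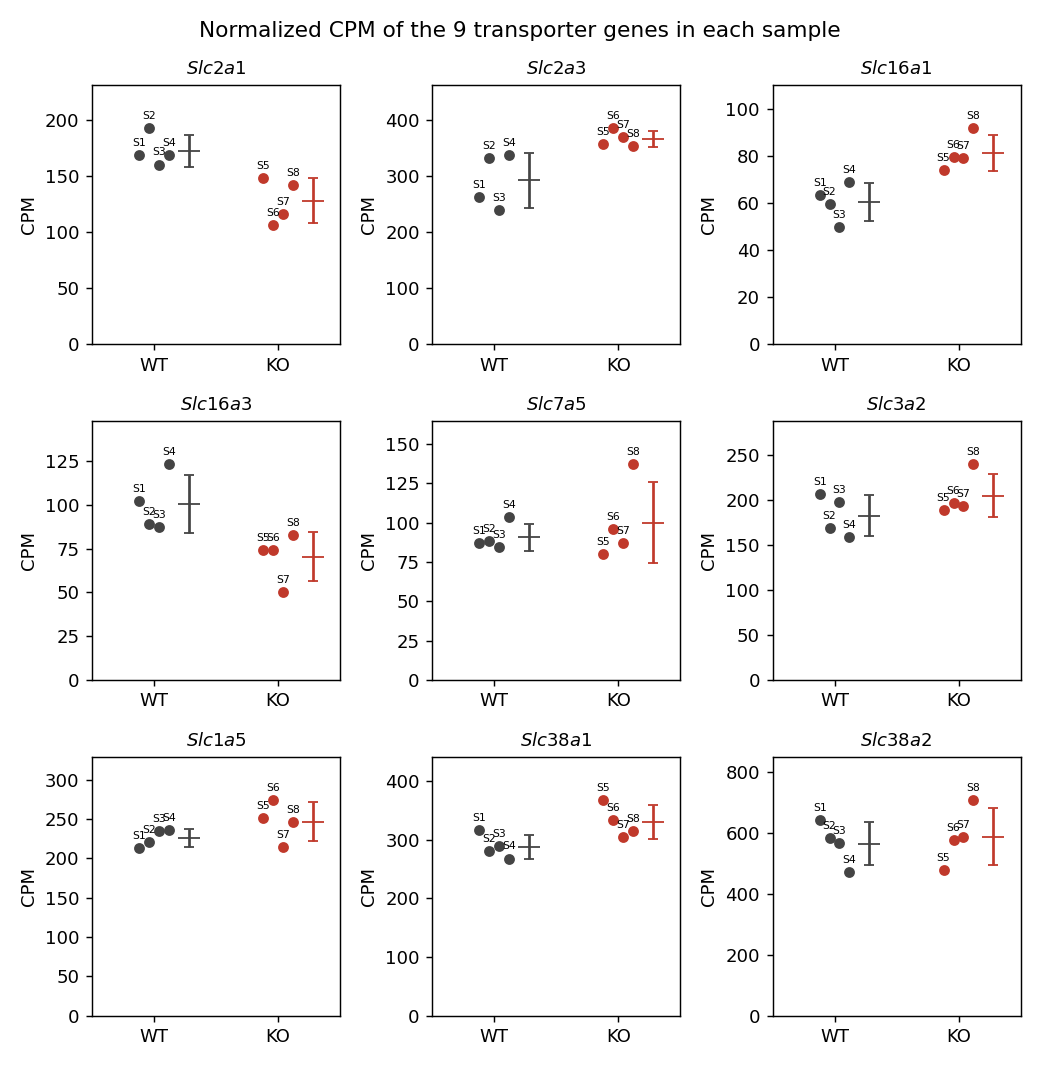
Normalized CPM (vertical axes, from 0) of the 9 transporter genes in the 4 WT and 4 KO samples, each point 1 sample, with the mean and SD beside the points. In the top row and the first panel of the middle row the groups do not overlap: *Slc2a1* and *Slc16a3* are lower and *Slc2a3* and *Slc16a1* higher in KO samples, while the other 5 genes overlap.

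The myeloid signal was set beside the 3 genes that passed. Within the groups, the correlation with a myeloid score, which averages log2 CPM over the tested markers, over the 8 samples was -0.73 for *Slc16a1*, -0.03 for *Slc16a3* and -0.32 for *Slc2a1*. With this score as a covariate the log2 fold changes were -0.08 for *Slc16a1*, -0.58 for *Slc16a3* and -0.66 for *Slc2a1*, with adjusted p of 0.965, 0.704 and 0.52 (edgeR), so no call was kept and that of *Slc16a1* changed sign. Of the other named genes that passed, *Emb*, *Slc15a3* and *Odc1* kept an adjusted p under 0.05 in this fit. The score ran from 4.28 to 5.72 in the WT samples, against 2.17 to 3.01 in the KO samples, and did not overlap between groups, so in this fit the score and the genotype can hardly be told apart. Without S3, the sample with the highest score, the log2 fold changes were 0.35, -0.57 and -0.46. The part of these cells in the differences was not tested. In bulk samples, fewer cells of a type and less RNA per cell cannot be told apart.

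The ratio of carriers of the same substrate within a sample needs no scaling for depth, but GC bias that differs between libraries would remain in it. The genes that fell are richer in GC, with 56.6% in *Slc16a3* against 42.9% in *Slc16a1*, and 54% in *Slc2a1* against 47.4% in *Slc2a3*. The ratios were not corrected for GC content. In the gene fits with offsets for GC content and length, *Slc16a1*, *Slc16a3* and *Slc2a1* kept their direction and an adjusted p under 0.05 (edgeR). They were computed from raw counts for 4 pairs, after the values of the single genes had been seen. Counts of *Slc16a3* over *Slc16a1* were 1.62, 1.5, 1.76 and 1.79 in the WT samples, against 1.00, 0.934, 0.633 and 0.901 in the KO samples. The mean ratio was 1.67 ± 0.133 (n = 4) in WT and 0.868 ± 0.163 (n = 4) in KO, with no overlap between groups. The difference of the mean log2 ratios corresponds to 0.514-fold. Counts of *Slc2a1* over *Slc2a3* were 0.64, 0.581, 0.67 and 0.499 in WT and 0.415, 0.275, 0.312 and 0.4 in KO samples. This ratio averaged 0.598 ± 0.0755 (n = 4) in WT and 0.351 ± 0.0678 (n = 4) in KO, again without overlap. Its mean log2 ratios differed by the equivalent of 0.582-fold. Since the single genes of both pairs had already parted in opposite directions, these ratios had to part too, and no test of them is given. With each sample left out, the log2 difference stayed between -1.04 and -0.81 for the lactate carriers and between -0.87 and -0.67 for the glucose carriers.

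The 2 other ratios overlapped between the genotypes. *Slc7a5* over *Slc3a2*, the light over the heavy chain of the LAT1 complex, was 0.507 ± 0.108 (n = 4) in WT and 0.484 ± 0.0649 (n = 4) in KO samples (two-sided exact permutation p = 0.8). *Slc38a2* over *Slc38a1* was 1.96 ± 0.141 (n = 4) and 1.80 ± 0.4 (n = 4), with S5 at 1.3 and S8 at 2.25 at the ends of the KO range (two-sided exact permutation p = 0.514).

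**Figure D2:**
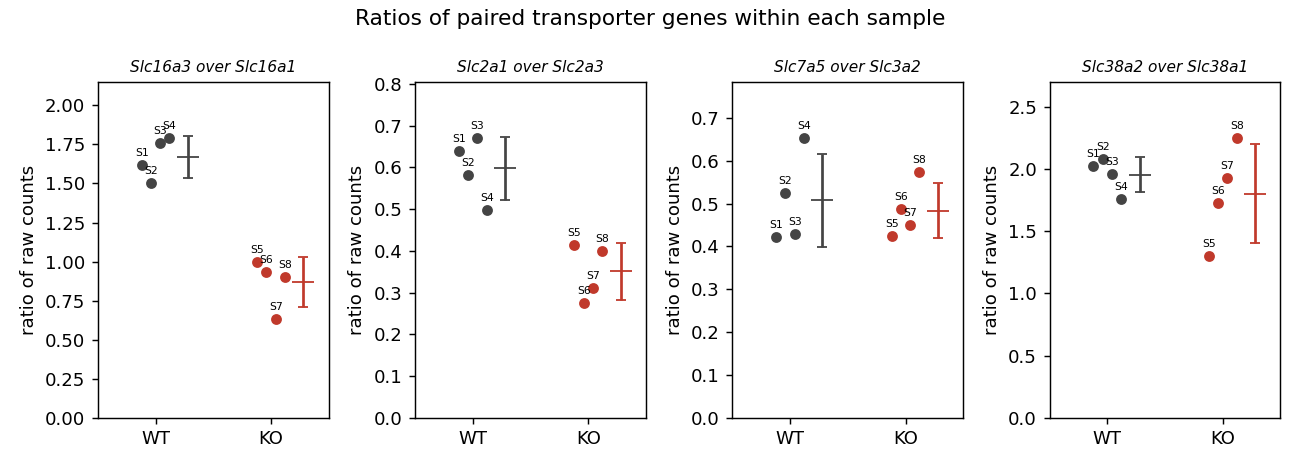
Ratio of raw counts (vertical axes, from 0) of 4 pairs of transporter genes in each WT and KO sample, with the mean and SD beside the points. For *Slc16a3* over *Slc16a1* all WT samples are at 1.5 or above and all KO samples at 1.00 or below, for *Slc2a1* over *Slc2a3* the groups also do not overlap, and the 2 ratios of amino acid carriers overlap.

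The summed levels per kilobase of exons overlapped between the genotypes for all 3 substrates. The 2 glucose carriers together were at 89.6 ± 9.94 CPM per kilobase of exons (n = 4) in WT and 87.1 ± 3.89 (n = 4) in KO samples (two-sided exact permutation p = 0.714). The 2 lactate carriers were at 32.6 ± 4.81 (n = 4) and 31.6 ± 3.72 (n = 4) on the same scale (two-sided exact permutation p = 0.743). The 5 amino acid carriers were at 211 ± 11 (n = 4) and 229.6 ± 23.9 (n = 4), with S8 the highest at 262 (two-sided exact permutation p = 0.2). Adjusted over the 3 sums, p was 0.743, 0.743 and 0.6. These sums were also added after the single genes had been seen. The glucose and lactate sums each join a gene that was higher and a gene that was lower in KO samples. Their members offset each other, so these p-values cannot show that a level was unchanged. The glucose sum also depends on the length used. *Slc2a3* was at 198 in WT and 248 in KO per kilobase of coding sequence, against 40.4 and 50.6 per kilobase of exons.

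None of the 5 amino acid carriers passed the test (edgeR's quasi-likelihood test, unadjusted p of at least 0.0557, DESeq2 giving the same count at an adjusted p under 0.05). *Slc7a5* (chromosome 8, 121881150 to 121907694, minus strand) was at 86.9, 88.3, 84.4 and 103 CPM in WT and 80.0, 96.0, 86.9 and 137 CPM in KO samples. S8 alone stood above the WT range. Its log2 fold change was 0.14 (95% interval -0.17 to 0.46), and without S8 it was -0.05. *Slc3a2* (chromosome 19, 8706882 to 8723369, minus strand) was at 206, 168, 197 and 158 CPM in WT and 188, 197, 193 and 239.6 CPM in KO samples, with a log2 fold change of 0.17 (95% interval -0.07 to 0.40).

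*Slc1a5* (chromosome 7, 16781340 to 16798274, plus strand) was at 213, 221, 234 and 237 CPM in WT and 251, 275, 214 and 247 CPM in KO samples. Here S7 lay within the WT range and the other KO samples above it. The log2 fold change was 0.12 (95% interval -0.08 to 0.33). *Slc38a1* (chromosome 15, 96571418 to 96642913, minus strand) was at 316, 280.0, 289 and 268 CPM in WT and 368, 334, 304 and 314 CPM in KO samples, with a log2 fold change of 0.20 (95% interval -0.005 to 0.397, adjusted p = 0.218 from edgeR). The KO samples S7 and S8 lay below S1, so the groups overlapped. *Slc38a2* (chromosome 15, 96687392 to 96699730, minus strand) is the neighbor of *Slc38a1* and had the most counts of the 9 genes. It was at 640.2, 582, 566 and 471 CPM in WT and 477, 577, 586 and 708 CPM in KO samples. These ranges nearly coincided, with a log2 fold change of 0.06 (95% interval -0.20 to 0.31). A change of 1.5-fold in either direction lies outside all 5 intervals.

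**Figure D3:**
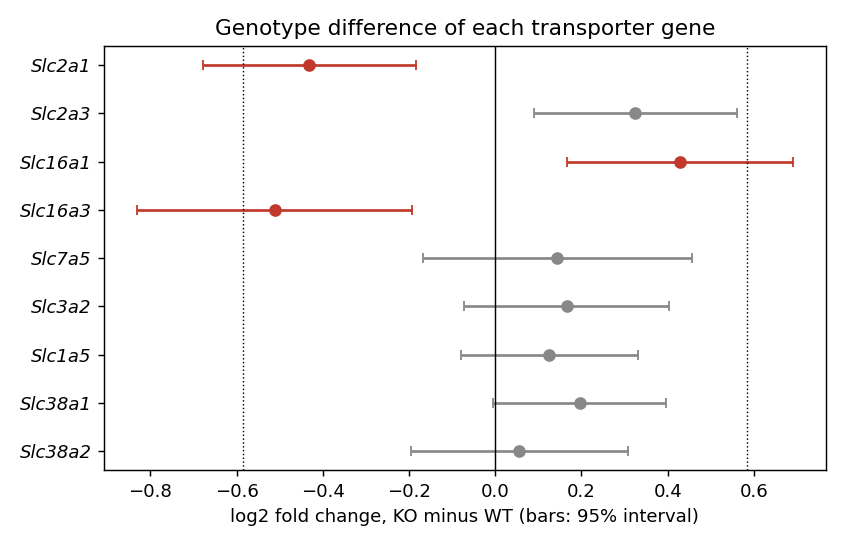
Log2 fold change, KO minus WT (horizontal axis), of each transporter gene from edgeR's quasi-likelihood fit, with 95% intervals as bars, red where the adjusted p is under 0.05, and dotted lines at a fold change of 1.5. *Slc2a1* (-0.43) and *Slc16a3* (-0.51) lie left of 0, *Slc16a1* (0.43) right of it, and the intervals of the 5 amino acid carriers include 0.

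Per kilobase of exons, *Slc38a2* was the most abundant of the 9 (65.2 CPM per kilobase over the 8 samples), followed by *Slc1a5* (56.7), *Slc3a2* (54.8), *Slc2a3* (45.5), *Slc2a1* (42.8), *Slc7a5* (25.7), *Slc38a1* (17.9), *Slc16a3* (16.1) and *Slc16a1* (16.0). Over the samples the ranges of neighbors in this order overlapped, except between *Slc7a5* (21.6 to 37.0) and *Slc38a1* (15.5 to 21.3). All 9 lay between the 81.9 and the 96.4 percentile of the genes tested. Among the 199 solute carriers tested, *Slc38a2* ranked 2 and *Slc16a1* 23.

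The order of the mean levels of the lactate carriers turned with the genotype. On this scale *Slc16a3* was at 18.9 and *Slc16a1* at 13.6 in WT, against 13.2 and 18.4 in KO cells. Per kilobase of coding sequence, the values were 71.4 and 40.8 in WT and 49.9 and 54.9 in KO cells, so the order of the means turned on both scales. In S5, however, *Slc16a3* stayed above *Slc16a1* by coding length (52.7 against 50.1). For the glucose carriers the order depended on the length used. Per kilobase of exons *Slc2a1* was at 49.2 and *Slc2a3* at 40.4 in WT, against 36.5 and 50.6 in KO cells, whereas per kilobase of coding sequence *Slc2a3* was above *Slc2a1* in both genotypes (198 against 117 in WT, 248 against 86.6 in KO). *Slc38a1*, whose annotated exons add up to 17236 bases for a coding sequence of 1455, moved from place 7 to place 3 with the coding length.

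**Figure D4:**
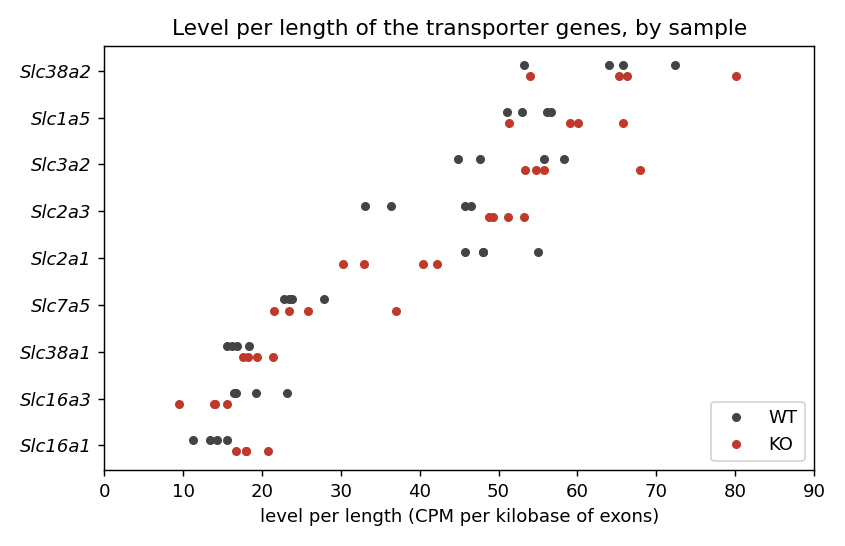
Level per length (horizontal axis, CPM per kilobase of annotated exons) of the 9 transporter genes, each point 1 sample, WT in grey and KO in red, with genes ordered by their mean over the 8 samples. *Slc38a2* is at the top, with 53.2 to 80.1, and *Slc16a1* and *Slc16a3* are at the bottom, between 9.43 and 23.2.

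Samples of the same group did not rank alike across the 9 genes. As deviations from the group means over the 8 samples (Pearson, a description of samples that share library and depth), *Slc3a2* went with *Slc38a2* (0.83) and *Slc7a5* with *Slc16a1* (0.74), while *Slc2a3* ran against *Slc3a2* (-0.74). The chains of the LAT1 complex, *Slc7a5* and *Slc3a2*, had a correlation of 0.40, and 1737 of 8766 genes were nearer to *Slc3a2* than *Slc7a5* was. Among genes of at least 10 CPM, the nearest pattern was that of *Sh3bp5l* for *Slc2a1* (0.965), *Grsf1* for *Slc2a3* (0.983), *Myadm* for *Slc7a5* (0.976), *Trim21* for *Slc3a2* (0.996) and *Scyl2* for *Slc1a5* (0.984). It was *Phlpp2* for *Slc38a1* (0.992), *Zfp740* for *Slc38a2* (0.968), *Abcd3* for *Slc16a1* (0.985) and *Map2k3* for *Slc16a3* (0.973). Each is the highest of 8766 correlations over 8 samples.

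MCT1 and MCT4 reach the membrane only with a partner glycoprotein, usually basigin (*Bsg*), while embigin (*Emb*) is the usual partner of MCT2. *Emb* rose in KO cells. It was at 150.3, 112, 121 and 139 CPM in the WT samples, against 354, 391, 359.8 and 356 CPM in the KO samples, so the lowest KO sample was more than double the highest WT sample. The means were 131 ± 17.1 CPM (n = 4) and 365 ± 17.5 CPM (n = 4), a log2 fold change of 1.48 (SE 0.10, adjusted p = 9.92e-08 by edgeR). *Emb* kept an adjusted p under 0.05 in every alternative fit, the one with the myeloid score included (0.0417).

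*Bsg* was at 172, 185, 183 and 220.2 CPM in WT and 163, 117, 162 and 154 CPM in KO samples. No KO sample reached the WT range, but the log2 fold change of -0.35 (95% interval -0.60 to -0.10) did not pass (adjusted p = 0.0679 from edgeR, 0.0379 from DESeq2). Of the 18 other monocarboxylate carriers and partners listed, 9 were tested, and *Emb* and *Slc16a11* passed, beside 11.3% of all genes tested. *Slc16a11*, a carrier of the same family, fell from 11.9 ± 4.52 CPM (n = 4) to 1.60 ± 0.728 CPM (n = 4), a log2 fold change of -2.88 (adjusted p = 0.000148 from edgeR). The mitochondrial pyruvate carrier genes *Mpc1* and *Mpc2* had log2 fold changes of -0.05 and -0.28, neither past the test. *Slc16a7*, which encodes MCT2, had 47 counts in all and was not tested.

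Of 14 other hexose carriers, 4 were tested and *Slc2a6* passed, at 2.73 to 8.17 CPM in WT and 0 to 1.83 CPM in KO samples (log2 fold change -2.52, adjusted p = 0.0302 from edgeR). Of 42 other amino acid carriers, 22 were tested, 2 rose and 2 fell, with a median log2 fold change of -0.02. Over all genes tested, 6.31% rose and 4.98% fell at an adjusted p under 0.05. *Slc15a3*, a lysosomal carrier of histidine and small peptides, rose from 23.1 ± 5.33 CPM (n = 4) to 107 ± 27.5 CPM (n = 4), a log2 fold change of 2.21 (adjusted p = 7.02e-07 from edgeR). The other that rose, *Slc43a1*, a leucine carrier, went from 1.89 to 6.57 CPM, and S5 at 1.05 CPM was below all WT samples. *Slc36a4* fell from 12.5 to 6.66 CPM and *Slc7a8*, which also pairs with the CD98 heavy chain, from 3.73 to 0.279 CPM (adjusted p = 0.0417 and 0.0111 from edgeR). The call of *Slc36a4* was lost without S2, S3, S4, S6, S7 or S8 (adjusted p = 0.0766 to 0.118) and its sign turned with the myeloid score (0.18), and that of *Slc7a8* was lost without S3 (adjusted p = 0.0686). *Slc2a6* lost its call without S2, S3, S4 or S6 (adjusted p = 0.0556 to 0.121), and *Slc43a1* (adjusted p = 0.0498) without S1, S2, S4, S6, S7 or S8 (0.0852 to 0.186). The arginine and lysine carrier *Slc7a1* had a log2 fold change of -0.31 (adjusted p = 0.103), *Slc7a6* of -0.04 (0.932) and *Slc1a4* of -1.25 at 2.81 CPM in WT (0.374). *Slc2a6*, *Slc43a1* and *Slc7a8* fell under the expression limit for named genes and were named after their values were seen. The myeloid markers were lower in the same samples as *Slc2a6*, *Slc7a8*, *Slc36a4* and *Slc16a11*, and their part was not tested.

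Of 28 regulators of these carriers, 27 were tested, 4 rose and 3 fell, with a median log2 fold change of -0.11, while 6.31% of all genes tested rose and 4.98% fell. *Myc*, which activates genes of glucose and glutamine uptake after T cell activation, fell. It was at 69.9, 72.2, 59.5 and 86.8 CPM in WT and 25.4, 42.5, 23.6 and 41.4 CPM in KO samples. The highest KO sample was below the lowest WT sample, and the log2 fold change was -1.11 (SE 0.19, adjusted p = 0.00084 by edgeR). *Irf4*, a transcription factor of activated T cells, rose from 189 ± 26.4 to 389 ± 42.8 CPM (n = 4 each), a log2 fold change of 1.04 (adjusted p = 1.21e-05 from edgeR).

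*Hif1a*, *Egln3* and *Epas1*, which encode hypoxia-inducible alpha subunits and an enzyme acting on them, did not move together. The targets of these factors were not tested as a set. *Hif1a* had a log2 fold change of 0.29 (adjusted p = 0.063 from edgeR), with S8 at 745 CPM within the WT range and the other KO samples at 959 to 982 CPM, and without S8 the log2 fold change was 0.38 (adjusted p = 0.00786). *Egln3*, a prolyl hydroxylase that marks hypoxia-inducible factors for degradation, rose from 17.3 ± 1.06 to 35.7 ± 6.12 CPM (n = 4 each). *Epas1*, which encodes another hypoxia-inducible alpha subunit and is also made by myeloid cells, fell from 52.6 ± 15.8 to 11.5 ± 4.99 CPM (n = 4 each). Their log2 fold changes were 1.05 and -2.19 (adjusted p = 0.000427 and 3.39e-05 from edgeR). The part of myeloid cells in the fall of *Epas1* was not tested.

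*Txnip*, whose protein draws GLUT1 off the membrane, had a log2 fold change of -0.12 (adjusted p = 0.526 from edgeR). Its relative *Arrdc4* fell from 6.69 to 1.01 CPM (log2 fold change -2.67, adjusted p = 0.00465, named after its value was seen), and *Arrdc3* rose from 38.3 to 70.6 CPM (0.88, adjusted p = 0.00202). *Eif2ak4*, which encodes the amino acid starvation kinase GCN2, rose (log2 fold change 0.73, adjusted p = 0.0262), a call that was lost without S2, S4, S5 or S6. *Atf4*, the transcription factor downstream of GCN2, had a log2 fold change of -0.06 (adjusted p = 0.749).

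Of 37 genes of mTORC1 and amino acid sensing, 34 were tested, 3 rose and 1 fell, while 6.31% of all genes tested rose and 4.98% fell. The gene that fell was *Ddit4*, an inhibitor of mTORC1, from 208 ± 32.9 to 112 ± 15.3 CPM (n = 4 each), a log2 fold change of -0.89 (adjusted p = 0.000182 from edgeR). The genes that rose were *Sesn3*, a sestrin (log2 fold change 0.37, adjusted p = 0.0123, but 0.26 and 0.12 with the offset for GC content and length), *Castor1*, an arginine sensor (1.15, adjusted p = 0.0413), and *Rragd*, a Rag GTPase (2.80, adjusted p = 0.00962). *Castor1* was at 5.50 CPM in WT, overlapped between groups and lost its call without any of S1 to S6 or S8. *Rragd* was at 0.703 CPM in WT, turned to a log2 fold change of -0.29 (adjusted p = 0.976) with the myeloid score, and was named after its value was seen. The median log2 fold change of the list was -0.01.

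Of 26 enzymes that act on the transported substrates, 25 were tested, 6 fell and 2 rose, with a median log2 fold change of -0.33, beside 4.98% and 6.31% of all genes tested. The calls of *Ldha* and *Asns* among the 6 were lost in most fits that left out a sample. *Ldha*, which turns pyruvate into lactate, was at 423, 488, 394 and 537 CPM in WT and 365, 358, 356 and 366 CPM in KO samples. The KO samples lay close together below all WT samples. The log2 fold change was -0.35 (adjusted p = 0.0331 from edgeR), and the call was lost without S2, S4, S5, S6, S7 or S8 (adjusted p = 0.0518 to 0.12) and with the offset for GC content and length (0.0614). *Odc1*, the first enzyme of polyamine synthesis, fell from 350.1 ± 42.9 to 179 ± 21.3 CPM (n = 4 each), a log2 fold change of -0.96 (adjusted p = 2.28e-05 from edgeR) that passed in every alternative fit.

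The serine and glycine enzymes were split. *Shmt2* and *Psat1* fell (log2 fold changes -0.64 and -0.77, adjusted p = 0.00423 and 0.0177 from edgeR), and *Phgdh*, the first enzyme of serine synthesis, rose (0.69, adjusted p = 0.0213). *Psat1* lost its call without S4 or S7 (adjusted p = 0.0741 and 0.0629), and *Phgdh* without S1 or S6 (0.053 and 0.0694). *Asns*, which makes asparagine from aspartate and glutamine, fell from 7.43 to 2.83 CPM (adjusted p = 0.0415), a call lost without S2, S3, S4, S5, S7 or S8 (0.0533 to 0.138). *Arg1* fell from 3.64 to 0.406 CPM (adjusted p = 0.00918) and was named after its value was seen. It is a gene of myeloid cells, whose markers were lower in the same samples, and their part was not tested. The log2 fold change of *Arg1* was -3.20, and -2.515 with the myeloid score as a covariate (adjusted p = 0.696, edgeR).

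*Glud1*, glutamate dehydrogenase, rose from 166 ± 16.2 to 225 ± 26.3 CPM (n = 4 each, log2 fold change 0.45, adjusted p = 0.013 from edgeR). Its groups only just parted, with S8 at 186.5 CPM against 186.0 CPM in S4. *Hk2*, a hexokinase, had a log2 fold change of -0.20 (95% interval -0.50 to 0.10).

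**Figure D5:**
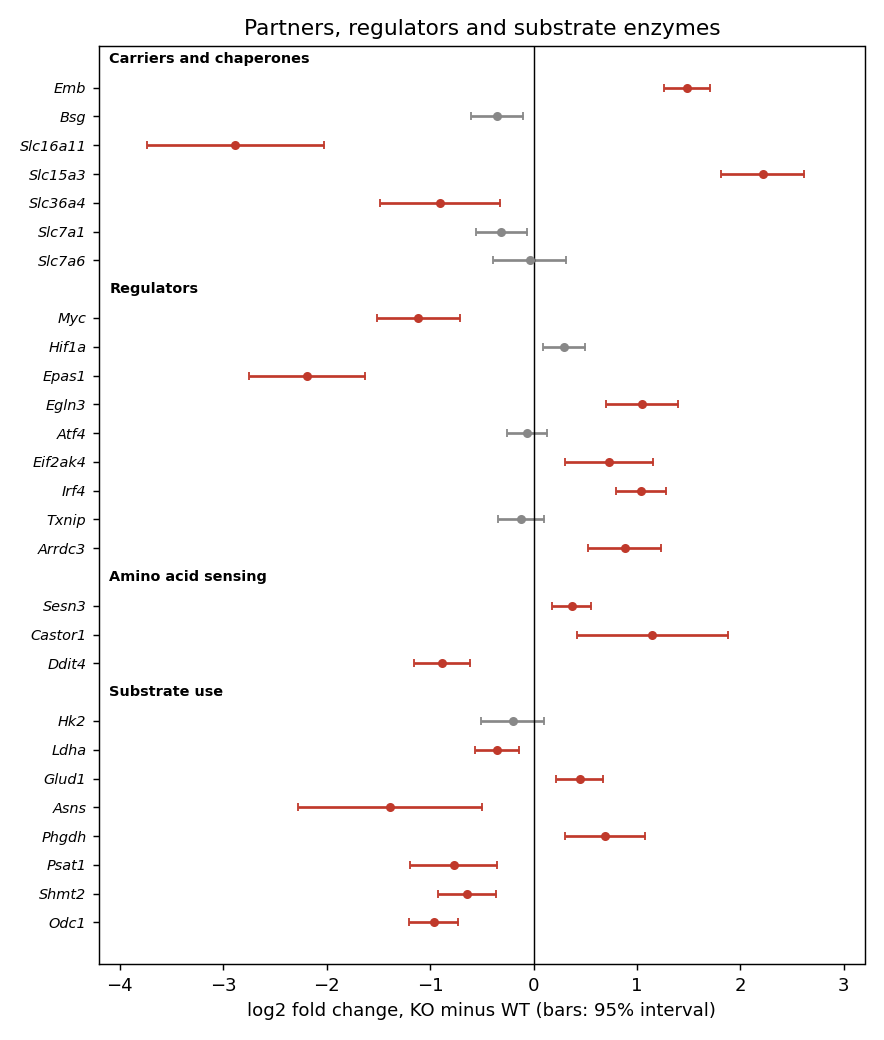
Log2 fold change, KO minus WT (horizontal axis), of 27 genes around the transporters from edgeR's quasi-likelihood fit, in 4 groups, with 95% intervals as bars and red where the adjusted p is under 0.05. *Emb* and *Slc15a3* lie farthest right (1.48 and 2.21), and *Slc16a11* and *Epas1* farthest left (-2.88 and -2.19).

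Over all 199 tested genes named as solute carriers, 21 were higher and 12 lower at an adjusted p under 0.05. Their median log2 fold change was -0.02, and of all genes tested 6.31% were higher and 4.98% lower. Annotated genes inside the spans of the 9 transporters could take or share reads. Gm43581 and Gm43585, in introns of *Slc16a1*, held 11.5% and 4.97% as many counts, and *Gm4482*, a pseudogene inside *Slc2a3*, 1.1%. None of these 3 overlaps an exon of its host. The 105 bases where *Gm12868* overlaps exons of *Slc2a1* on the other strand belong to a gene with 0 counts.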

How the data were processed

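The authors aligned the paired reads of directional, rRNA-depleted libraries with STAR to GRCm38 and counted them per gene with featureCounts on a GENCODE annotation. The deposited values are these raw counts, neither normalized nor pooled. The authors tested them with DESeq2 and a GC correction. The genotype of each column came from the names S1 to S8 in a supplementary legend of the study, and no column could be tied to a replicate number.

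Here counts were filtered with filterByExpr, scaled with TMM and compared with the quasi-likelihood test of edgeR 4.0.16 in R 4.3.3, with p adjusted by Benjamini-Hochberg over 15378 genes. A call needed over 1.5-fold and an adjusted p below 0.01, and the text also uses 0.05. Each SE was derived from the fold change and its F statistic. Single values were tested with exact permutation tests on log2 CPM (prior count 2), log2 ratios or log2 sums. All pairs of samples within a group differed by more than sampling noise, the median chi-square over genes being 4.9 to 8.56 (0.455 for noise alone). The fit was tested on simulated data.

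GENCODE M21 on GRCm38 matched 55154 of 55335 gene IDs and gave names, coordinates and lengths. The named genes are the 9 transporters, listed genes with an adjusted p under 0.05 and at least 5 CPM, 12 genes fixed by name (1 of them is not reported here), *Kdm1a* and the nearest gene of each transporter. The transporters and lists were chosen with earlier results of these data known. Of the lists, Slc66a1 and Samtor were not matched. P-values set a difference against the spread between samples, each of 2 pooled mice in WT and of 1 mouse in KO. Pooling averages over mice in WT samples alone, and the tests made no allowance for this.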

Additional observations from a re-analysis of the deposited data

Results flagged for a closer look

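Among 78 groups of 4 samples tested, 4 held a sample whose gap to the nearest other was large for the range of the group, and 3.9 are expected by chance at 1 in 20. None was a group of the 9 transporters. The gap as a share of the range was 0.838 for *Emb* in S6, where log2 CPM was 8.61 and the other KO samples lay at 8.47 to 8.49. It was 0.831 for *Bsg* in S6, at 6.87 against 7.27 to 7.35. It was 0.848 for *Glud1* in S8, at 7.54 against 7.87 to 7.92, and 0.914 for *Hif1a* in S8, at 9.54 against 9.91 to 9.94.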

How the results depend on the processing

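For the gene fits, 16 alternatives were run: 3 other scalings, 2 other filters, DESeq2, offsets for GC content and length, the myeloid marker score as a covariate, and leaving out each of the 8 samples. Over the 9 transporters, 30 other named genes and the 6 genes under 5 CPM, whose alternatives were added after seeing the data, 611 of 720 log2 fold changes kept their direction and their side of 0.05, 87 lost the call, 11 gained it and 11 changed sign. The sign changes with the myeloid score were *Slc7a5* (-0.28), *Slc38a2* (-0.33), *Slc16a1* (-0.081), *Slc36a4* (0.18) and *Rragd* (-0.295). With each sample left out, *Slc7a6* ranged from -0.157 to 0.109 (0.039 without S2, 0.03 without S7), *Slc38a2* from -0.046 without S8 to 0.145 (-0.022 without S4), and *Slc7a5* from -0.049 without S8 to 0.24. With the myeloid score, 28 genes were called higher and 2 lower, 65 and 14 passed 0.05, and of the transporters 0 passed in either direction. The cause was not tested. With no filter, 531 genes were called lower, against 306. With no filter and with DESeq2, 2 transporters were higher at 0.05, *Slc2a3* being the second. With each sample left out, 347 to 452 genes were called higher and 199 to 303 lower, and 676 to 1001 and 480 to 785 passed 0.05. Of the transporters 0 to 2 were higher and 0 to 2 lower at 0.05, and 0 were called. With a sample left out, the ratio of *Slc7a5* over *Slc3a2* had a log2 difference of -0.138 to 0.075 (0.006 without S5) and that of *Slc38a2* over *Slc38a1* of -0.261 to 0.005. The prior count of 0.5 changed no permutation p of a transporter. By coding length in place of exon length, 6 of the 9 transporters changed place in the order of levels. That length was added because the protein table listed in advance was not used here. No paired analysis was possible because the columns carry no replicate number.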

Other observations

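Of the 199 solute carriers tested, 15 passed both thresholds (over 1.5-fold, adjusted p below 0.01, edgeR), 11 higher and 4 lower, *Slc15a3* and *Slc16a11* among them. They were named after their values were seen. The higher genes included *Slc12a7*, a potassium chloride cotransporter (64.7 ± 11.3 CPM in WT and 134 ± 5.22 CPM in KO samples, SD, n = 4 each, log2 fold change 1.05), and *Slc37a3* (60.0 ± 14 and 136 ± 9.59 CPM, 1.18). *Slc44a1*, a choline carrier, had a log2 fold change of 1.69, and *Slc41a1* and *Slc41a2*, magnesium carriers, of 0.64 and 1.14. *Slc5a3*, which imports myo-inositol, had one of 0.69, with overlapping samples. Of the lower genes, *Slc17a6*, a vesicular glutamate transporter known from neurons, went from 83.0 ± 16.4 CPM to 13.8 ± 6.92 CPM (SD, n = 4 each, log2 fold change -2.59, adjusted p = 5.9e-06). *Slc14a1*, a urea carrier, had a log2 fold change of -1.84. For the 13 not described above, alternatives added after seeing the data kept direction and an adjusted p under 0.05 in all 195 fits without the myeloid score, and 0 of the 13 passed 0.05 with it. Of all genes tested, 2.91% were called higher and 1.99% lower.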
